A study of Mus musculus with 15 samples.

Results

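Binding of FLAG-tagged transcription factors was examined at the mouse genes Tnfsf11 and Tnfrsf11b, which encode a pair of opposing signals from bone-forming cells to osteoclasts. All peaks with a midpoint in the mm9 windows chr14:78550000-78850000 (Tnfsf11, 300 kb) and chr15:53980000-54210000 (Tnfrsf11b, 230 kb) were taken, and peaks of any list that shared at least 1 bp were merged into a site. This gave 61 peaks at 27 sites, 11 in the Tnfsf11 and 16 in the Tnfrsf11b window, of 61108 merged sites in the genome.

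The study mapped factor binding by ChIP-seq with the FLAG M2 antibody in 15 samples, of which 12 have a peak list and 3 are input DNA. In primary osteoblasts from calvaria of C57BL/6 mice at postnatal day 1, Sp7 was precipitated from cells of the genotype Sp7-BioFL/BioFL (2 lists), and wild-type cells gave the antibody control (1 list). The other lists came from the osteoblastic cell line MC3T3-E1 at passages 5 to 10, kept for 1 week in osteogenic medium with BMP-2 at 10 ng/ml, 10 mM beta-glycerophosphate and 50 ug/ml ascorbic acid phosphate. Here the precipitated proteins were Sp7, Dlx5, Sp1 and Sp7mut (2 lists each), and GFP served as the control (1 list). Sp7, also named Osterix, is a zinc finger factor that osteoblast differentiation requires, Dlx5 is a homeodomain factor, and Sp1 is a zinc finger factor of most cell types. What was altered in Sp7mut, how the line expressed the tagged proteins, and whether replicates were separate cultures or litters are not stated in the labels. Peak lists carry no expression values, so the osteoblast identity of the cells rests on the labels.

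Tnfsf11 encodes RANKL, a membrane-bound or shed cytokine of osteoblasts, osteocytes and stromal cells that binds the receptor RANK on osteoclast precursors and drives them to become bone-resorbing osteoclasts. Tnfrsf11b encodes osteoprotegerin (OPG), a secreted decoy receptor that captures RANKL and so holds resorption back. The balance of both proteins sets how much bone is resorbed, and Tnfsf11 is known for enhancers that lie far from its promoter. In the RefSeq gene order of GRCm38.p6, the protein-coding neighbours of Tnfsf11 are Fam216b and Akap11, and those of Tnfrsf11b are Samd12 and Colec10. No mm9 gene annotation was used here, so sites are given by position and were not assigned to a promoter, exon, intron or neighbouring gene.

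Peak positions in mm9 could not be set against gene starts, but the promoter of Tnfsf11 itself was read from RefSeq by its symbol (1 of the 2 genes matched). It is shown as sequence only. Sp1 is known to bind the GC box, but any relation of this motif to the Sp1 peaks of the window was not tested. The 250 bases before the start site on the minus strand, GRCm38.p6 chr14:78308044-78308293, read 5′ to 3′ as follows, with the TATAA motif in capitals.
Tnfsf11 promoter: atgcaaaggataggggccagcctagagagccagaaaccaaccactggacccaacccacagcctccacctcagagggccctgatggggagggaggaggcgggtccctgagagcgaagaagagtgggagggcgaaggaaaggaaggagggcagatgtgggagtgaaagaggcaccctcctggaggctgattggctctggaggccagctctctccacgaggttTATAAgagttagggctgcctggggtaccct

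The GC box GGGCGG, searched on both strands, was not in this stretch, and 32.7% of 32851 RefSeq promoters of the same length hold it. The homeodomain core TAATT, also searched on both strands, was not in it either and is held by 25% of them. TATAA, added after the sequence was seen and searched on the gene's own strand, began 30 bases before the start site, and 16.0% of promoters hold it. The stretch had 60.4% G and C, against a median of 52.4% over all promoters. A motif match or its lack describes these letters and does not show where a factor binds.

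Over whole lists Dlx5 had the most sites of the 5 factors at both genes. It also held the largest share of all merged sites of the genome, 39.0% against 14.8% for Sp1, the next largest. Sp7 of primary osteoblasts had 3 sites in the 300 kb Tnfsf11 window and 1 in the 230 kb Tnfrsf11b window. A further primary Sp7 site lay in the 50 kb before the Tnfrsf11b window, and none beside the Tnfsf11 window. Cell line Sp7 and Sp1 had no site found in both replicates at either gene. A site was counted for a factor when both of its replicate lists held a peak there and the control list from the matching cells did not. The wild-type and GFP controls had 0 peaks in either window. Tagged lists held between 2666 and 39749 rows and the controls 183 and 269. The lists give positions without read counts or scores, so the depth behind a peak is unknown. The smallest p that an exact two-sided permutation test can reach for 2 lists against 2 is 0.333, so counts are given beside their background over all 61108 sites and over consecutive stretches of the same length along the autosomes and X, with no test.

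**Figure D1:**
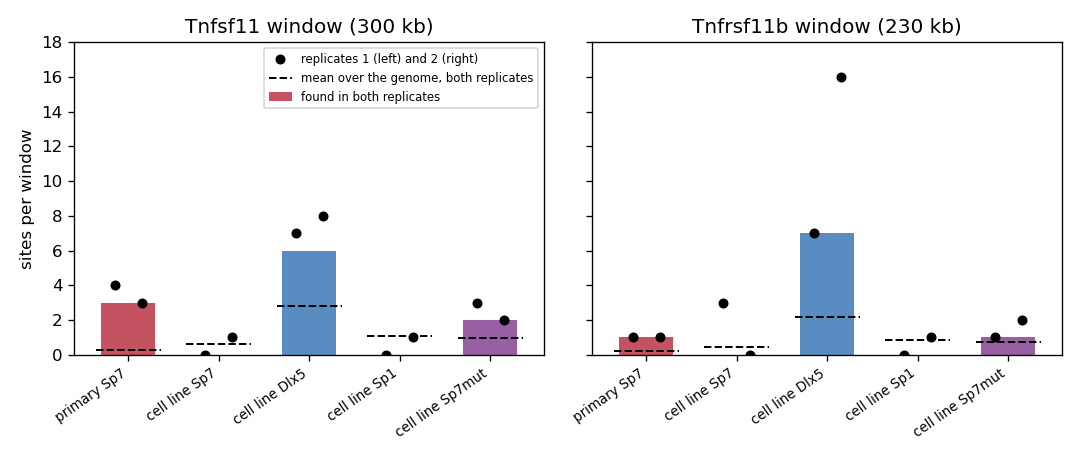
Sites per window (y axis) for each tagged factor in the Tnfsf11 window (left) and the Tnfrsf11b window (right). Bars are sites found in both replicates, points are replicate 1 (left) and replicate 2 (right), and dashed lines are the mean number of such sites per stretch of that length over the genome. Dlx5 has the tallest bars at both genes, 6 and 7, and primary Sp7 has 3 sites at Tnfsf11 where the genome mean is 0.246.

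At Tnfsf11, Dlx5 had 6 of the 11 sites in both replicates, primary Sp7 3, Sp7mut 2, and cell line Sp7 and Sp1 0 each. Over all merged sites of the genome, the share found in both replicates was 39.0% for Dlx5, 3.44% for primary Sp7, 13.6% for Sp7mut, 8.40% for cell line Sp7 and 14.8% for Sp1. Read against these shares, 3 of 11 sites was above the 3.44% of primary Sp7, though the difference was fewer than 3 sites. The counts of Dlx5 and Sp7mut, and the 0 of cell line Sp7 and Sp1, differed from their shares by 2 sites or fewer. By length, 1.50% of 8532 stretches of 300 kb held 3 or more primary Sp7 sites, whereas 19.6% held 6 or more Dlx5 sites. These stretches include gene-poor sequence, and 82.3% of them held no primary Sp7 site. The window, by contrast, was chosen around a known gene, with earlier results of these data known. For the factors with 0 sites, the same stretches had none in 69.7% of cases for cell line Sp7 and in 59.9% for Sp1, so an empty window was the usual result for both.

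Replicates of the same factor were close in number at Tnfsf11. Primary Sp7 had 4 peaks in replicate 1 and 3 in replicate 2, a mean of 3.50 ± 0.707 (SD, n = 2). Dlx5 had 7 and 8 peaks, Sp7mut 3 and 2, cell line Sp7 0 and 1, and Sp1 0 and 1. Scaled to list length, primary Sp7 had 15.0 and 9.34 peaks per 10000 rows, Dlx5 2.32 and 2.01, Sp7mut 2.85 and 1.35, and cell line Sp7 0 and 1.65. Both primary Sp7 lists thus lay above every cell line list on this scale at Tnfsf11. At Tnfrsf11b this did not hold, with 3.75 and 3.11 in primary Sp7 and 2.32 and 4.03 in Dlx5. Cell system, list length and the way the tagged protein was made cannot be told apart here.

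At Tnfrsf11b, Dlx5 had 7 of the 16 sites in both replicates, primary Sp7 and Sp7mut had 1 each, and cell line Sp7 and Sp1 again had 0. Set beside the shares of all merged sites given above, 7 of 16 was near the 39.0% of Dlx5. Stretches of 230 kb with 7 or more Dlx5 sites made up 10.1% of 11133, and 14.4% held at least 1 primary Sp7 site and 33.8% at least 1 Sp7mut site. No site of cell line Sp7 was in 74.2% of these stretches, and none of Sp1 in 65.0%. Replicates of Dlx5 were far apart in number here, with 7 peaks in replicate 1 and 16 in replicate 2 (mean 11.5 ± 6.36, SD, n = 2), while their lists held 30234 and 39749 rows. All 7 sites of replicate 1 were found again in replicate 2, which had a peak at each of the 16 sites. Cell line Sp7 had 3 peaks in replicate 1 and 0 in replicate 2, Sp1 had 0 and 1, and Sp7mut 1 and 2. Of the 16 sites, 7 were in Dlx5 replicate 2 alone, so the number of merged sites at Tnfrsf11b rested on that list. Each list was also shortened to its first 2666 rows, the length of the shortest tagged list. Dlx5 and Sp7mut then had 0 sites in both replicates at either gene, while primary Sp7 kept 3 at Tnfsf11 and 1 at Tnfrsf11b. This cut left primary Sp7 replicate 1 whole and kept most of the 3212 rows of replicate 2. It kept only a small part of both Dlx5 lists. The turned order of Dlx5 and primary Sp7 was thus built into the setting and does not compare the factors. In the wider 50% of peaks Dlx5 had 2 at Tnfsf11 and 0 at Tnfrsf11b. Over both windows, 10 of 27 sites were in 1 list only, close to the 39.5% of all merged sites.

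**Figure D2:**
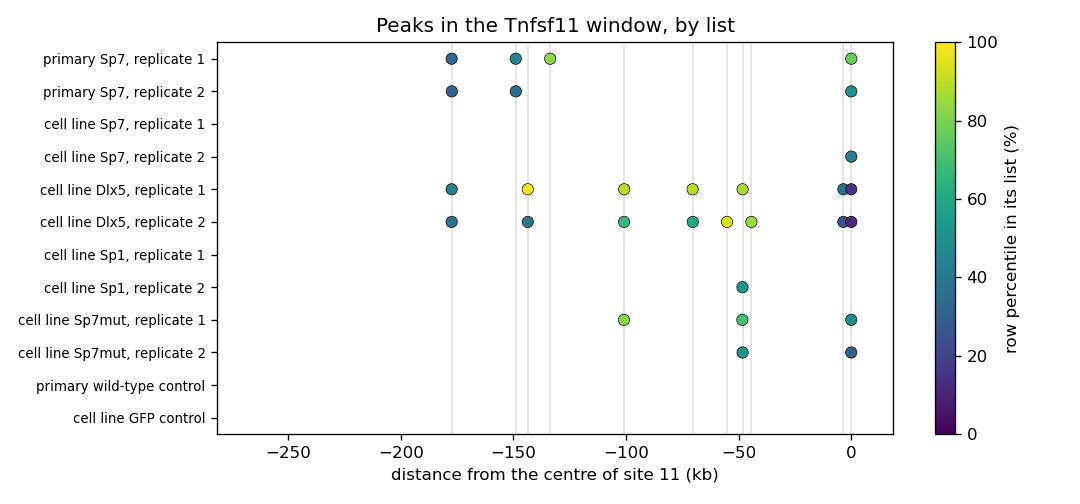
Peaks of the Tnfsf11 window (points) in each of the 12 lists, by distance in kb from the centre of site 11 and with the window's limits as the ends of the axis. Colour is the row percentile of the peak in its own list, where low values stand near the start. Site 11, at 0, is held by 7 lists, and the other 10 sites lie to its left.

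The position of a peak in its list was given as a row percentile, its row number over the number of rows, with low values near the start of the list. The rule behind the row order is not stated. In all 10 tagged lists, peaks of the earlier 50% of rows were found again in the other replicate more often than peaks of the later 50%, for example 93.0% against 67.0% in Dlx5 replicate 1 and 47.0% against 8.88% in cell line Sp7 replicate 1. Percentiles of lists of different length do not measure the strength of binding between factors.

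Site 11 of the Tnfsf11 window, chr14:78831356-78831583, was the site shared by most lists. It had a peak in both primary Sp7 lists, both Dlx5 lists, both Sp7mut lists and cell line Sp7 replicate 2, and in none of the Sp1 or control lists. Its row percentiles were 77.0 and 48.8 in primary Sp7 replicates 1 and 2 and 15.1 and 11.8 in those of Dlx5. In Sp7mut they were 49.1 and 30.1, and in cell line Sp7 replicate 2 the value was 41.2. Relative to the length of its own lists, Dlx5 thus had the peak early and primary Sp7 in the middle or later. By row number the order was reversed, with rows 4552 and 4672 in Dlx5 and 2054 and 1569 in the shorter primary Sp7 lists. The longer cell line Sp7 list, replicate 1 with 18624 rows, had no peak here, while replicate 2 with 6063 rows did. Midpoints of the 7 peaks lay 1.5 to 34.5 bp apart, so all lists placed the site on the same stretch of 228 bp.

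Site 10, chr14:78827856-78828051, lay 3.52 kb from site 11 between their centres and was held by Dlx5 alone, at row percentiles of 38.4 and 26.3. Sites 10 and 11 were the only Dlx5 sites of the Tnfsf11 window with another within 10 kb. The median distance from a Dlx5 site of this window to the nearest other one was 30.4 kb, against 11.2 kb over all 23826 Dlx5 sites.

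Site 1, chr14:78653959-78654354, at the other end of the occupied part of the window, was the second site with both Sp7 of primary cells and Dlx5. Its row percentiles were 32.8 and 29.7 in primary Sp7 and 41.9 and 36.1 in Dlx5, so both factors had it in the first 50% of each of their lists. The primary Sp7 peaks were 208 and 396 bp wide and the Dlx5 peaks 148 and 157 bp. No cell line Sp7, Sp7mut or Sp1 list had a peak there. Of the 3 primary Sp7 sites at Tnfsf11, 2 (sites 1 and 11) were also Dlx5 sites, against 69.7% of all 2105 primary Sp7 sites.

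Site 2, chr14:78682441-78682658, was the third primary Sp7 site and had no peak in any cell line list. Its row percentiles were 44.9 and 35.4, and its peaks were 161 and 218 bp wide. A further primary Sp7 peak, site 4 at chr14:78697750-78697896, was in replicate 1 only, at a row percentile of 83.2. Sites 2 and 4 were the 2 sites of both windows with no Dlx5 peak.

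Site 8, chr14:78783022-78783424, was found in both Sp7mut lists, at row percentiles of 69.6 and 51.2, and in single lists of Sp1 (replicate 2, 52.5) and Dlx5 (replicate 1, 87.1). It was the one place of the Tnfsf11 window with an Sp1 peak, and no Sp7 list of either cell system had it. The Sp7mut peaks differed in width, 129 and 359 bp, with midpoints 123 bp apart. The Dlx5 peak of 48 bp overlapped the Sp1 peak and the wider Sp7mut peak but lay 31 bp beyond the end of the narrower one. When 50% of both peaks had to overlap, site 8 no longer held both Sp7mut replicates, and the Sp7mut count at Tnfsf11 fell from 2 to 1.

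The remaining Dlx5 sites of the Tnfsf11 window stood late in at least 1 list. Site 3 at chr14:78687763-78687987 had row percentiles of 99.5 and 39.2, site 5 at chr14:78730504-78730800 had 89.6 and 66.9, and site 6 at chr14:78760983-78761203 had 89.6 and 60.3. Site 5 was also met by Sp7mut replicate 1, at 82.3. Sites 7 and 9 were peaks of Dlx5 replicate 2 alone, at 95.1 and 85.4.

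**Figure D3:**
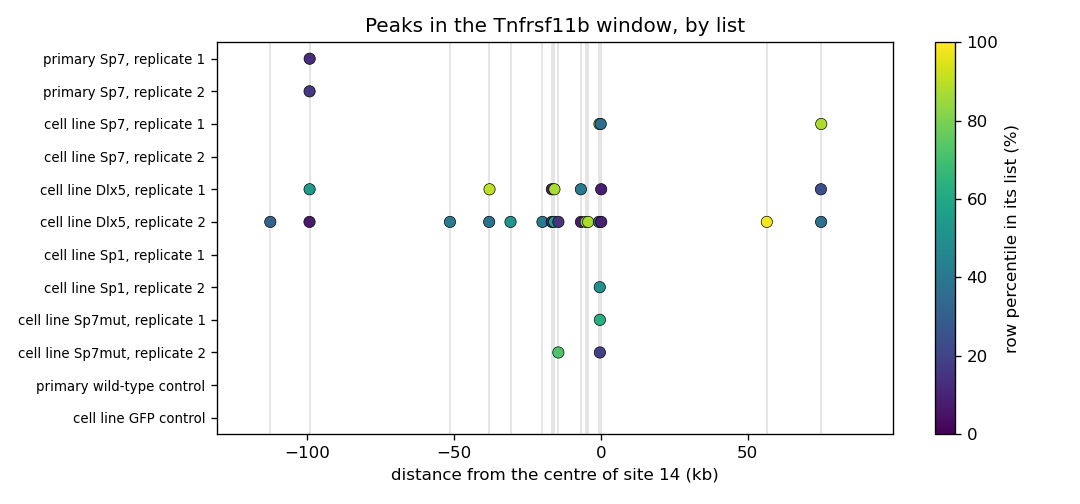
Peaks of the Tnfrsf11b window (points) in each of the 12 lists, by distance in kb from the centre of site 14 and with the window's limits as the ends of the axis. Colour is the row percentile of the peak in its own list. Dlx5 replicate 2 has a peak at all 16 sites, 9 of which are not in Dlx5 replicate 1, and the primary Sp7 lists meet only site 2, at the left.

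At Tnfrsf11b, the single primary Sp7 site was site 2, chr15:54011290-54011572. Both lists had it early, at row percentiles of 13.0 and 15.8, which were the lowest of primary Sp7 in either window. Dlx5 had it at 54.8 in replicate 1 and 6.98 in replicate 2, so its replicates placed it very differently. Midpoints of the 4 peaks lay 5.5 to 51 bp apart. No cell line Sp7, Sp7mut or Sp1 list met this site. Over both windows 3 of 13 Dlx5 sites were primary Sp7 sites, against 6.16% of all Dlx5 sites. Seen from primary Sp7, 3 of its 4 sites were Dlx5 sites, near the 69.7% of all primary Sp7 sites. The overlap thus followed from the number of primary Sp7 sites and adds nothing to that count.

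Further along the Tnfrsf11b window lay the 2 sites with its lowest median row percentiles over the tagged lists that held them, 8.86 and 9.32. Site 14, chr15:54110353-54110770, had Dlx5 peaks at 8.31 and 8.86, and site 7, chr15:54093808-54093961, at 8.07 and 10.6. Site 10, chr15:54103688-54103895, stood later in Dlx5 replicate 1, at 40.5, than in replicate 2, at 8.13. Site 7 and site 10 held peaks of no other factor. Site 16, chr15:54185371-54185647, stood apart towards the end of the window, with Dlx5 at 23.6 and 36.7 and a cell line Sp7 peak of replicate 1 at 87.5.

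Sites 7, 8, 10 and 14 were Dlx5 sites within 20 kb of one another. Such groups of 4 or more in 20 kb, a measure chosen after the positions were seen, held 14.8% of all Dlx5 sites, 4 of the 7 at Tnfrsf11b and 0 of the 6 at Tnfsf11. Site 8, chr15:54094459-54094892, was 0.791 kb from site 7 and stood late, at 86.8 and 55.6. The same stretch held 4 sites in Dlx5 replicate 2 that were not in replicate 1 (sites 9, 11, 12 and 13), and site 9, chr15:54096001-54096216, was among them at a percentile of 15.0. Sp7mut replicate 2 also met site 9, at 71.9. Elsewhere in the window, site 4 at chr15:54072477-54072866 was also in both Dlx5 replicates, at 89.9 and 37.2. The 7 sites of Dlx5 replicate 2 alone (sites 1, 3, 5, 6, 11, 12 and 15) had row percentiles from 30.5 to 98.2.

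**Figure D4:**
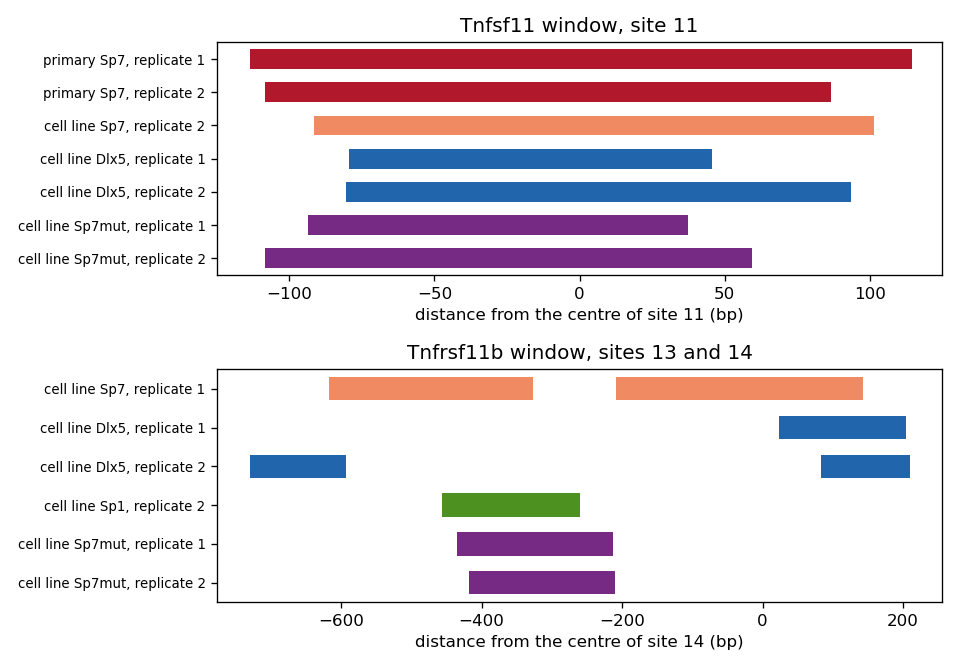
Span of each peak (bars, coloured by factor) in the lists that hold site 11 of the Tnfsf11 window (top) and sites 13 and 14 of the Tnfrsf11b window (bottom), by distance in bp from the centre of site 11 or 14. At site 11 all 7 peaks cover the same stretch, whereas at sites 13 and 14 the Sp1 and Sp7mut peaks lie between the outer Dlx5 peaks.

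Sites 13 and 14 formed an adjoining pair in which the factors took different places. Site 13, chr15:54109832-54110350, joined 5 peaks through a chain of overlaps. Both Sp7mut lists and Sp1 replicate 2 covered nearly the same bases, with midpoints 10.5 to 44.5 bp apart, at row percentiles of 62.5 and 19.1 for Sp7mut and 50.2 for Sp1. A Dlx5 replicate 2 peak (32.4) lay at the far end of the site, 137 bp short of the Sp1 peak and 158 and 176 bp short of the Sp7mut peaks. Cell line Sp7 replicate 1 (85.7) bridged them, overlapping the Dlx5 peak by 24 bp and the Sp1 peak by 130 bp.

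Site 14 began just beyond site 13 and held both Dlx5 lists and a second peak of cell line Sp7 replicate 1, at a percentile of 35.4. That Sp7 peak, 352 bp wide, overlapped the Dlx5 peaks by 120 and 60 bp, and its midpoint was 146.5 and 179 bp from theirs, while the 2 Dlx5 midpoints were 32.5 bp apart. No Sp1 or Sp7mut peak reached site 14. The pair of sites was thus the one place of the Tnfrsf11b window with an Sp1 peak, and site 13 the one place with both Sp7mut replicates. Cell line Sp7 replicate 2, the shorter list, had no peak at either.

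In the cell line, no site at either gene held both replicates of Sp7 and of Dlx5. That is 0 of 13 Dlx5 sites, against 18.8% of all Dlx5 sites. Because cell line Sp7 had 0 sites in either window, this overlap could only be 0 and adds nothing to that count. Counting any Sp7 peak, of either cell system and either replicate, 5 of 13 Dlx5 sites had one, against 51.4% over the genome. These were sites 1 and 11 of Tnfsf11 and sites 2, 14 and 16 of Tnfrsf11b. Of the 13 Dlx5 sites, 7 had no peak in any other factor's list, against 35.9%. With so few sites, these differences from the genome were not tested.

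**Figure D5:**
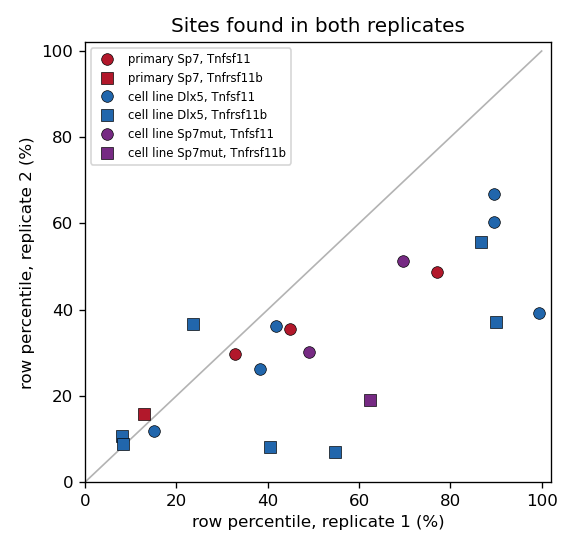
Row percentile in replicate 1 (x axis) and replicate 2 (y axis) of each site found in both replicates of a factor (circles, Tnfsf11; squares, Tnfrsf11b; colour, factor), with the line of equal values in grey. Dlx5 sites 7 and 14 of Tnfrsf11b and site 11 of Tnfsf11 are early in both lists, while site 2 of Tnfrsf11b is at 54.8 in replicate 1 and 6.98 in replicate 2.

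At sites found in both replicates, the replicates often held the peak at different ranks. Peaks of a site were joined by overlap, so their midpoints had to lie near each other. The distances below therefore do not measure how well replicates agree, and peaks without a partner are not in them. Midpoints of the 13 Dlx5 sites differed between replicates by 3 to 121.5 bp (median 24.5 bp), those of the 4 primary Sp7 sites by 11.5 to 87 bp (median 23.2 bp) and those of the 3 Sp7mut sites by 3.5 to 123 bp (median 10.5 bp). Row percentiles, which the merging did not use, lay as far apart as 99.5 and 39.2 at single Dlx5 sites (Tnfsf11 site 3). Peak widths in the windows ranged from 48 to 434 bp in Dlx5 and from 107 to 396 bp in primary Sp7.

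Just outside the windows, the 50 kb before the Tnfsf11 window held 0 sites and the 50 kb after it 1, which no factor had in both replicates. The 50 kb before the Tnfrsf11b window held 3 sites, of which Dlx5 had 2 and primary Sp7, cell line Sp7 and Sp7mut 1 each in both replicates. The 50 kb after it held 2 sites, 1 of them a Dlx5 site. The nearest of these sites lay 8.63 kb past the end of the Tnfrsf11b window and 28.0 kb before its start.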

How the data were processed

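FLAG ChIP-seq peaks of 12 libraries were analysed. The authors' deposited lists hold 3 columns without a header, for the chromosome and the limits of a peak in bp, with no score or count. Peaks were called per library, against the input libraries that the labels name. Positions are on mm9 according to the submitters' processing notes. The aligner was not given in the sources used here, nor were the peak caller and its threshold. Starts were read as counted from 0, the BED convention, and printed 1-based. Groups and replicates came from sample titles. Cell line Sp7 and Dlx5 share an input library, Sp1 and Sp7mut share another, both primary groups share a primary one, and that of GFP is not named.

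Peaks were merged over all lists at 1 bp overlap. Every site was counted, and the 5 per window with the lowest median row percentile among sites found in both replicates of a factor were described with their values in every list, as were most others. The windows, sites and measures were chosen with earlier results of these data known. Genome stretches ran end to end from the first to the last site of each chromosome and include gene-poor sequence. The merging was tested on simulated lists. Promoter motifs were searched in RefSeq sequences of GRCm38.p6. Other genes of the RANKL pathway were not analysed here, because their mm9 positions were not used. Python 3.11.15, numpy 2.4.6, pandas 2.3.3 and matplotlib 3.10.9 were used.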

Additional observations from a re-analysis of the deposited data

How the results depend on the processing

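Counts of sites found in both replicates were recomputed under 8 alternatives. Keeping sites over control peaks changed none of them and could not, because the controls had 0 peaks in either window. An overlap of 50% of both peaks lowered Sp7mut at Tnfsf11 from 2 to 1, Dlx5 at Tnfsf11 from 6 to 5 and Dlx5 at Tnfrsf11b from 7 to 5. Windows shortened by 25 kb at each end lost sites 10 and 11 of Tnfsf11 and sites 1 and 16 of Tnfrsf11b. At Tnfsf11 this left Dlx5 with 4 sites, primary Sp7 with 2, Sp7mut with 1 and primary Sp7 with 1 site shared with Dlx5, and at Tnfrsf11b Dlx5 with 6. In the earlier 50% of rows, Dlx5 had 3 sites at Tnfsf11 and 4 at Tnfrsf11b, Sp7mut had 1 and 0, and primary Sp7 had 2 and 1, of which 1 and 0 were shared with Dlx5. In the wider 50% of peaks, Dlx5 had 2 and 0, Sp7mut had 0 at Tnfsf11, primary Sp7 had 2 and 0, and 0 primary Sp7 sites were shared with Dlx5 at either gene. With every list shortened to 2666 rows, Dlx5 and Sp7mut had 0 sites at both genes, and primary Sp7 kept 3 and 1, 0 of them shared with Dlx5. Because this cut left primary Sp7 replicate 1 whole and removed most of the Dlx5 rows, it does not compare the factors. With 1 replicate left out, so that a peak in the other was enough, Dlx5 had 7 to 8 sites at Tnfsf11 and 7 to 16 at Tnfrsf11b, Sp7mut 2 to 3 and 1 to 2, cell line Sp7 0 to 1 and 0 to 3, Sp1 0 to 1 at each, and primary Sp7 3 to 4 and 1 to 1. Cell line Sp7 sites shared with Dlx5 were then 0 to 1 at Tnfsf11 and 0 to 2 at Tnfrsf11b, and primary Sp7 sites shared with Dlx5 2 to 2 and 1 to 1. No paired analysis was possible because each value is a count over both replicates of a group with no test, and the labels do not say that equal replicate numbers tie samples of different groups. The overlap of primary Sp7 with Dlx5 was added after seeing the data.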
